A study of Mus musculus with 6 samples.

Results

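Polycomb repressive complex 2 (PRC2) is a chromatin enzyme that methylates histone H3 at lysine 27 (H3K27), and genes carrying the trimethylated mark are as a rule silent. Its core holds a methyltransferase, Ezh1 or Ezh2, together with Eed, Suz12 and a histone-binding protein, Rbbp4 or Rbbp7. Accessory subunits divide the complex into alternative forms: the polycomb-like proteins Mtf2 and Phf19 belong to PRC2.1, and Jarid2 and Aebp2 to PRC2.2. In cortical progenitors PRC2 is best known for holding back genes of later developmental stages and so for timing the switch from proliferation to neuron production. The 10 genes named here were taken from the table by symbol, out of 17920 genes listed. The list was chosen with earlier results of these data known. All 10 passed the filter on low counts, as did 13669 genes in all.

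The mRNA of 6 libraries was sequenced, 3 labelled WT and 3 labelled KD, from E13.5 mouse cortex (E13.5 is the day of gestation). The methods describe cells dissociated from the embryonic cortex, grown on a coated surface in neuron medium, infected with a lentivirus that carries a short hairpin RNA, and selected with puromycin, which leaves only infected cells alive. WT cells received a control hairpin and KD cells a hairpin against Ybx1, an RNA-binding protein that reads 5-methylcytosine in mRNA, so both groups share infection and selection. The labels give the genotype only as WT or KD, the series text speaks of a deletion, and the hairpin used, the strain and the number of embryos behind a culture are not given in the sources used here. The methods speak of independent replicate experiments, while the labels do not say whether the cultures were separate, so the spread between replicates may be partly technical.

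Ybx1, the targeted gene, stood at 618, 615 and 653 CPM (counts scaled to the size of the library) in the WT libraries and at 98.3, 92.2 and 159 CPM in the KD libraries. Its level fell by 2.43 on the log2 scale (SE 0.18, adjusted p = 1.82e-04, edgeR's quasi-likelihood test), and no library went against its label. Library totals lay between 16294635 and 16497505 estimated counts. Microglial, endothelial, mural and red cell markers each summed to at most 5.96 TPM (reads divided by transcript length and scaled to the same sum in every library) in any library, while radial glial markers summed to between 3075 and 3781 TPM and neuronal markers to between 3181 and 3980 TPM, so markers of progenitors and of neurons were both present. The libraries numbered 2 stood apart in both groups: the counts of 3 Y-linked genes summed to 6 and 13 there, against 1040 to 1733 in the other 4 libraries. Counts of calls, and the PRC2 genes called, are therefore also given without this pair.

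The starts of the PRC2 genes are shown first as sequence context, with the letters bound by E2F and NF-Y proteins, which are frequent in promoters of cell cycle genes. RefSeq (build GRCm38.p6) gave 14 promoters for the 10 genes, each running from 250 bases before to 50 bases after a transcription start. The E2F letters searched were TTTCCCGC, TTTGGCGC, TTTCGCGC and TTTGCCGC on both strands. They were found in the promoters of 3 PRC2 genes, Ezh2, Suz12 and Phf19, and in 2.26% of all 32851 mouse promoters of this length. These 3 matches are printed with their flanks in the direction of the gene, with the E2F letters in capitals:
Ezh2, chr6:47595012-47595035, minus strand, inside the annotated first exon: ttgctgcgTTTGGCGCtcggtccg
Suz12, chr11:79992879-79992902, plus strand, upstream of the start: cccctcatTTTCCCGCgaattcag
Phf19, chr2:34914169-34914192, minus strand, upstream of the start used here but inside the annotated span of the gene: aataattcGCGGGAAAacgcgaaa

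The NF-Y letters, CCAAT on either strand, lay in 9 of the 14 promoters, belonging to 8 of the 10 genes, and in 37.4% of all promoters. The 100 bases upstream of the start are printed for the 3 genes whose level rose and for Ezh1, whose level did not pass the test, with the NF-Y letters in capitals. Ezh2 held 3 matches in this stretch, Rbbp4 held 1, and the stretches of Mtf2 and Ezh1 held none:
Ezh2, chr6:47595031-47595130, minus strand: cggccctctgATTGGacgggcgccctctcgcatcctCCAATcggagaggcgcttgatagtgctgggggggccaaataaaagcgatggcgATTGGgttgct
Rbbp4, chr4:129335371-129335470, minus strand: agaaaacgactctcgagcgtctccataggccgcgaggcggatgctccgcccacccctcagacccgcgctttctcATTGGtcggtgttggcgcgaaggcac
Mtf2, chr5:108065574-108065673, plus strand: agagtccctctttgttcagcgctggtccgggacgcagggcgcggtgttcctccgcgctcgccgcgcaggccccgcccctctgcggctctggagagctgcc
Ezh1, chr11:101226464-101226563, minus strand: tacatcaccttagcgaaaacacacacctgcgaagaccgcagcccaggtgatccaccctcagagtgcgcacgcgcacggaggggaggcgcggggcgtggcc

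In the stretch of Ezh2, 28 bases are also exon of another Ezh2 transcript, and a second annotated start of Mtf2 does carry NF-Y letters. The CHR letters TTTGAA, a further element of late cell cycle genes, lay in 4 of the 14 promoters and in 17.9% of all promoters. PRC2 promoters held a median of 23.5 CpG pairs in 300 bases (range 2 to 41), against 7 for all promoters. In the PRC2 promoters no match overlapped a match of another element. A match describes the letters only, and binding was not measured.

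In KD the levels of 3 PRC2 genes rose, Ezh2, Mtf2 and Rbbp4, by between 1.20-fold and 1.55-fold, and 0 fell (adjusted p below 0.05, edgeR's quasi-likelihood test). At an unadjusted p below 0.05 the counts were 7 higher and 0 lower, against 19.0% of all genes tested in each direction, and DESeq2 and limma-voom also called 3 higher and 0 lower. Of 17893 genes DESeq2 called 1429 higher and 1337 lower, and of 13669 genes limma-voom called 1637 higher and 1614 lower. Among all genes tested 12.0% were called higher and 11.9% lower, 24.0% in either direction. Of these calls 50.2% were higher, against 65.9% in a limma test of log2(TPM + 1), where 4 PRC2 genes were called higher, Rbbp7 being added. That limma test called 2076 of 13669 genes higher and 1072 lower. For 7 of the 10 genes every KD library lay above every WT library, an arrangement that 21.0% of all genes tested showed. The median log2 fold change of the PRC2 genes was 0.21, against -0.001 for all genes tested, whose middle range ran from -0.17 to 0.16. When the replicate number was entered as a block, 5 genes were called higher, with Suz12 and Phf19 added, and the background rose to 18.6%. Without the pair numbered 2, 0 were called higher or lower among these 10 and 1.66% of all genes were called in either direction, while 9 of 10 log2 fold changes stayed above 0 and 3 genes were higher at an unadjusted p below 0.05, against 11.5% of all genes.

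**Figure D1:**
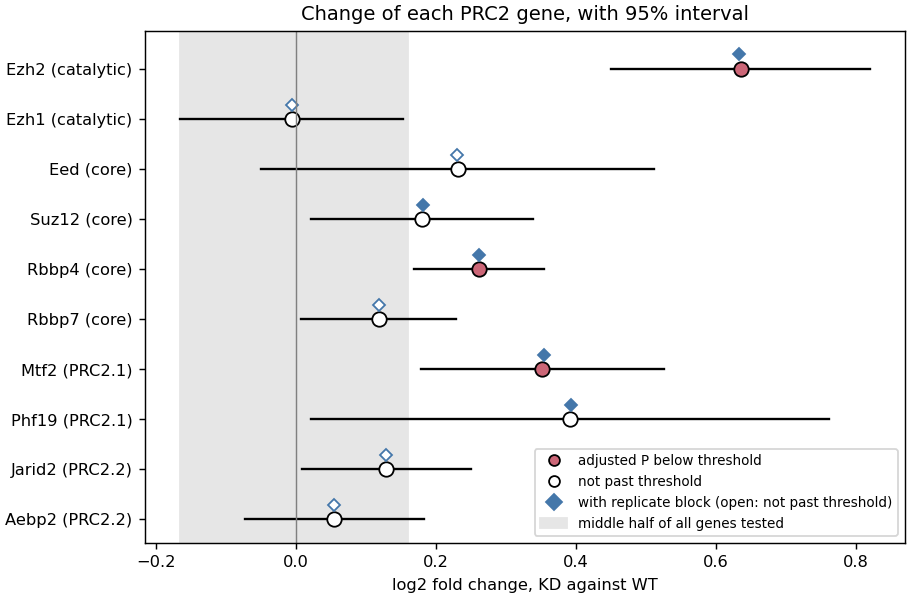
Log2 fold change of each PRC2 gene, KD against WT (x axis), with its 95% interval. Filled points passed the threshold, blue diamonds are the values with the replicate block, and the grey band from -0.17 to 0.16 holds the middle of all genes tested. Ezh2 stands farthest from 0 at 0.64 and Ezh1 lies at -0.01.

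Ezh2, the methyltransferase that prevails in dividing cells, had the largest log2 fold change of the 10. Its gene (Entrez Gene 14056) spans chr6:47530274-47595270 on the minus strand of GRCm38.p6. It stood at 47.1, 46.5 and 52.0 CPM in WT and at 83.8, 73.6 and 68.6 CPM in KD. The lowest KD library thus lay above the highest WT library. Mean levels were 48.5 ± 3.03 CPM (SD, n = 3) and 75.4 ± 7.74 CPM (SD, n = 3), and the log2 fold change came to 0.64 (SE 0.08, adjusted p = 0.00146, edgeR's quasi-likelihood test) or 1.55-fold with a 95% interval from 1.37 to 1.77. Only 2.47% of all genes tested had a larger log2 fold change. The difference between libraries of the same number was 0.83, 0.66 and 0.40 on the log2 scale, so it was present in all 3 comparisons but uneven. Without the pair numbered 2 the log2 fold change was 0.62 and the adjusted p 0.0566.

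Ezh1, the paralogue that is also active in cells that have left the cycle, was measured at 52.1, 46.8 and 46.1 CPM in WT and at 47.1, 51.5 and 45.7 CPM in KD. The groups overlapped. The log2 fold change was -0.01 (SE 0.07, adjusted p = 0.957, edgeR's quasi-likelihood test), and the 95% interval of the fold ran from 0.891 to 1.11. Its direction turned under other scalings, so no direction is given. The ratio of Ezh2 to Ezh1 TPM, which compares the genes per length within a library, was 1.53, 1.68 and 1.92 in WT and 3.01, 2.43 and 2.55 in KD. Mean ratios were 1.71 ± 0.194 and 2.66 ± 0.306 (SD, n = 3 each), with every KD library above every WT library. The ratio had no test of its own.

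**Figure D2:**
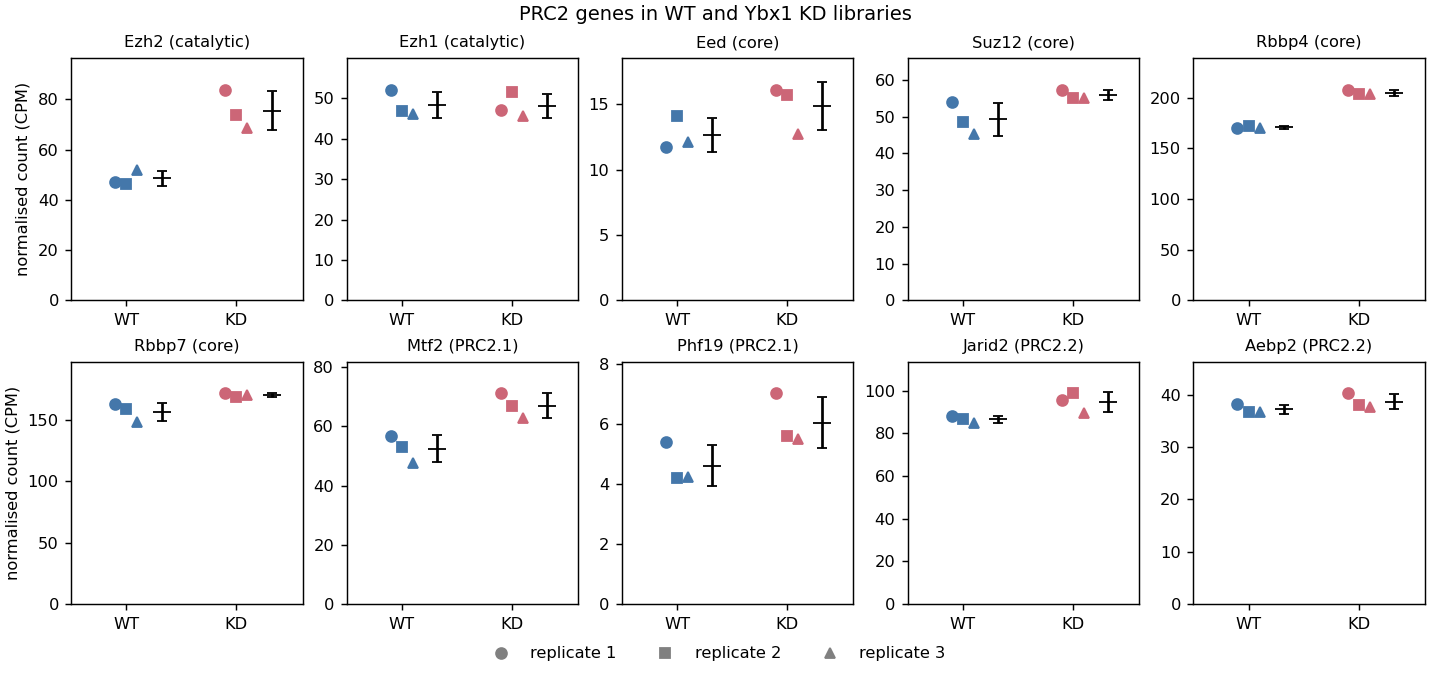
Level of each PRC2 gene in CPM (y axis, from 0) in the 3 WT and 3 KD libraries. Symbols mark the replicate number, and bars give the mean with its SD. The KD libraries of Ezh2, Rbbp4 and Mtf2 all sit above the WT libraries, whereas those of Ezh1 and Aebp2 overlap with them.

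Proliferation genes moved in the same direction as Ezh2 between the groups. Levels of 12 of the 14 genes rose, where 12.0% of all genes tested were called higher. The other 2, Cdk1 and Ccnb1, did not pass the test but did so with the replicate block, which called 18.6% of all genes higher. The median log2 fold change of the 14 genes was 0.49. Mki67, a protein of dividing cells, rose by 0.65 on the log2 scale (adjusted p = 0.00885) and Mcm6, part of the replicative helicase, by 0.64 (adjusted p = 0.0052, edgeR's quasi-likelihood test). TPM values of the 14 genes summed to 492, 453 and 444 in WT and to 791, 635 and 621 in KD. KD replicate 1 was the highest library for this sum and also for Ezh2, and the KD libraries kept the same order for both. The WT libraries did not. WT replicate 3 had the lowest sum and the highest Ezh2 level, 45.4 TPM, while WT replicate 1 had the highest sum and 40.5 TPM of Ezh2. In bulk RNA, more dividing cells and more Ezh2 RNA in each cell cannot be told apart, and the part of cell number in the PRC2 differences was not tested. Proliferation calls fell to 6 without WT replicate 2, to 8 without KD replicate 1 or without WT replicate 3, and to 1 without the pair numbered 2. In these fits, in this order, 11.4%, 15.8%, 23.1% and 1.66% of all genes were called in either direction, against 24.0% with all libraries.

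Some cell type markers also moved. Levels of all 4 intermediate progenitor markers, Eomes, Neurog2, Insm1 and Btg2, rose with a median log2 fold change of 1.49, and their summed TPM went from between 43.0 and 55.2 in WT to between 97.3 and 122 in KD. Levels of 2 of 9 radial glial markers, Pax6 and Hes1, rose, as did 2 of 9 neuronal markers, Dcx and Neurod2. Among all genes tested 12.0% were called higher and 11.9% lower. Summed radial glial TPM ran from 3075 to 3442 in WT and from 3493 to 3781 in KD. Most of these sums came from Fabp7, at 2368 to 2705 TPM in WT and 2728 to 2842 TPM in KD, which was not called (log2 fold change 0.045). Summed neuronal TPM overlapped, at 3181 to 3832 in WT and 3412 to 3980 in KD. Of the GABAergic markers 1 of 5, Dlx2, was higher, with sums of 368 to 531 and 410 to 610 TPM, and of the oligodendrocyte lineage markers 1 of 4, Cspg4, was lower, with sums of 131 to 192 and 131 to 167 TPM. No call was made among the astrocyte markers (3 of 4 tested, 51.6 to 59.6 and 50.2 to 61.2 TPM), the microglial markers (1 of 6 tested, 2.72 to 5.96 and 3.38 to 4.87 TPM) or the endothelial markers (2 of 5 tested, 0.97 to 1.5 and 0.87 to 1.51 TPM). Pdgfrb was called higher among the 2 mural and meningeal markers tested of 4, whose sums ran from 2.57 to 3.69 and from 3.75 to 4.72 TPM. Red cell markers were too low to test, at up to 1.07 TPM. With the replicate block 5 of 9 radial glial markers were called higher, adding Sox2, Vim and Prom1, and 5 of 9 neuronal markers, adding Neurod6, Tbr1 and Bcl11b. This fit called 18.6% of all genes higher and 36.6% in either direction. It also called 3 of 4 oligodendrocyte lineage markers lower, adding Olig2 and Sox10, and among the GABAergic markers it added Dlx1 as higher and Gad1 as lower. Without the pair numbered 2 the marker calls left were Neurog2, Insm1 and Dlx2, all higher. In that fit 1.66% of all genes were called in either direction.

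Of the remaining core subunits, Rbbp4 is a histone-binding protein shared with other chromatin complexes (Entrez Gene 19646, chr4:129307100-129335370, minus strand). It stood at 170.0, 172.2 and 170.2 CPM in WT and at 207.9, 203.2 and 203.2 CPM in KD. The groups were well apart and each was tight, with means of 171 ± 1.22 CPM and 205 ± 2.68 CPM (SD, n = 3 each). The log2 fold change was 0.26 (SE 0.04, adjusted p = 0.00336, edgeR's quasi-likelihood test), 1.20-fold with a 95% interval from 1.12 to 1.28. Without the pair numbered 2 it was 0.27, with an adjusted p of 0.0824. Its estimated counts were fractional in all 6 libraries, meaning that some reads were divided between similar sequences, and 782 of its 8744 exonic bases overlap the gene Sync on the other strand and 796 overlap the non-coding gene Gm26722. How many reads were divided cannot be read from the counts. Whether the counting used strand is not given in the sources used here, so the level of Rbbp4 is less certain than that of Ezh2. For Ezh2, 174 of 6678 exonic bases overlap a non-coding gene, and the count was fractional in 1 library.

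Rbbp7, the close relative of Rbbp4, was measured at 162.5, 158.8 and 148.3 CPM in WT and at 171.5, 168.3 and 169.8 CPM in KD. No KD library fell as low as a WT library, but the log2 fold change of 0.12 (SE 0.05, adjusted p = 0.112, edgeR's quasi-likelihood test) did not pass. Its 95% interval for the fold ran from 1.01 to 1.17. In 174 of its 2909 exonic bases it overlaps Txlng, which was itself called higher, by 0.32 on the log2 scale (adjusted p = 0.0208). The ratio of Rbbp4 to Rbbp7 TPM was 0.494, 0.512 and 0.540 in WT and 0.578, 0.574 and 0.563 in KD, without overlap and without a test.

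Suz12, the scaffold that holds the core together, stood at 54.0, 48.4 and 45.3 CPM in WT and at 57.3, 55.0 and 55.0 CPM in KD. The groups did not overlap, although WT replicate 1 came close to the KD libraries. The log2 fold change was 0.18 (SE 0.07) with an adjusted p of 0.0945 in edgeR's quasi-likelihood test. With the replicate block the adjusted p was 0.0287, and without WT replicate 1 it was 0.0333 with a log2 fold change of 0.25, so the call depended on the fit. Eed, the subunit that binds the methylated histone and stimulates the enzyme, was measured at 11.7, 14.1 and 12.1 CPM in WT and at 16.1, 15.7 and 12.7 CPM in KD. Its groups overlapped. The log2 fold change was 0.23 (SE 0.12, adjusted p = 0.207), with a fold interval from 0.966 to 1.43.

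Among the accessory subunits, Mtf2 is a PRC2.1 polycomb-like protein that brings PRC2 to unmethylated CpG islands (Entrez Gene 17765, chr5:108065660-108109219, plus strand). It stood at 56.6, 53.1 and 47.5 CPM in WT and at 71.1, 66.9 and 62.7 CPM in KD. All KD libraries lay above all WT libraries, and the same-numbered differences of 0.33, 0.33 and 0.40 on the log2 scale were nearly equal. The log2 fold change was 0.35 (SE 0.08, adjusted p = 0.0125, edgeR's quasi-likelihood test), 1.28-fold with a 95% interval from 1.13 to 1.44. Without the pair numbered 2 it was 0.36, with an adjusted p of 0.142. Mtf2 shares 395 of its 5698 exonic bases with Tmed5 on the other strand, a gene that was not called (log2 fold change -0.10, adjusted p = 0.454).

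Phf19, the related polycomb-like protein, was the least abundant of the 10, at 5.40, 4.20 and 4.24 CPM in WT and at 7.03, 5.61 and 5.52 CPM in KD. The lowest KD library was just above WT replicate 1. Its log2 fold change of 0.39 (SE 0.16) was larger than that of Mtf2, but with 68 to 117 reads in a library the 95% interval of the fold was wide, from 1.02 to 1.70, and the adjusted p was 0.114 in edgeR's quasi-likelihood test. With the replicate block it was 0.039. Counting error alone gives a coefficient of variation of 11.6% at its WT counts.

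Jarid2, the PRC2.2 subunit that helps recruit and stimulate the enzyme, stood at 88.1, 86.5 and 84.7 CPM in WT and at 95.4, 98.7 and 89.5 CPM in KD. The groups did not overlap, yet the log2 fold change of 0.13 (SE 0.05) had an adjusted p of 0.112 in edgeR's quasi-likelihood test. Aebp2, its partner, was measured at 38.2, 36.7 and 36.8 CPM in WT and at 40.3, 38.0 and 37.8 CPM in KD. Its groups overlapped. The log2 fold change was 0.06 (SE 0.06, adjusted p = 0.517), with a fold interval from 0.950 to 1.14. The summed TPM of Mtf2 and Phf19 divided by that of Jarid2 and Aebp2 was 0.681, 0.655 and 0.588 in WT and 0.792, 0.714 and 0.741 in KD. All KD ratios were above the WT ratios, and no test was made.

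**Figure D3:**
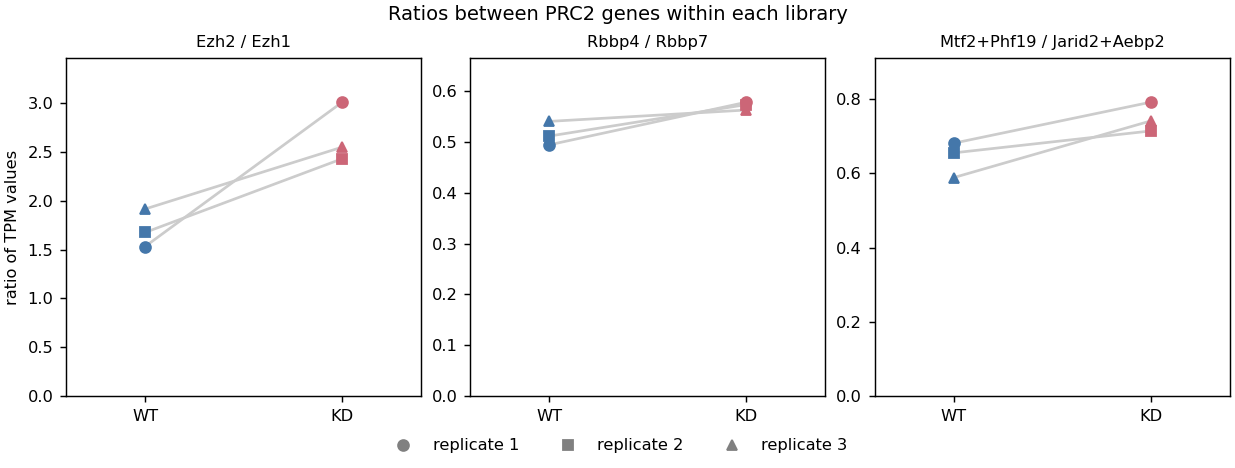
Ratios of TPM within each library (y axes) for Ezh2 to Ezh1, Rbbp4 to Rbbp7, and Mtf2 plus Phf19 to Jarid2 plus Aebp2, in WT and KD. Symbols mark the replicate number, and grey lines join libraries of the same number. In each panel the 3 KD libraries lie above the 3 WT libraries.

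Per length, the histone-binding subunits were the most abundant. In WT the order by mean TPM was Rbbp7 (160 ± 5.92), Rbbp4 (82.5 ± 0.690), Ezh2 (41.7 ± 3.23), Jarid2 (32.4 ± 0.910), Mtf2 (26.0 ± 2.24), Ezh1 (24.5 ± 1.64), Suz12 (24.0 ± 2.02), Eed (14.2 ± 1.31), Aebp2 (12.9 ± 0.153) and Phf19 (3.09 ± 0.287), each as mean and SD over 3 libraries. Neighbours in this order did not overlap except Mtf2 with Ezh1 and Ezh1 with Suz12. Rbbp7 exceeded 93.95% of the genes listed and Phf19 34.7%. In KD only Suz12 (28.2 TPM) and Ezh1 (25.3 TPM) changed places, and their ranges, 27.25 to 29.2 and 23.6 to 27.4 TPM, overlapped.

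**Figure D4:**
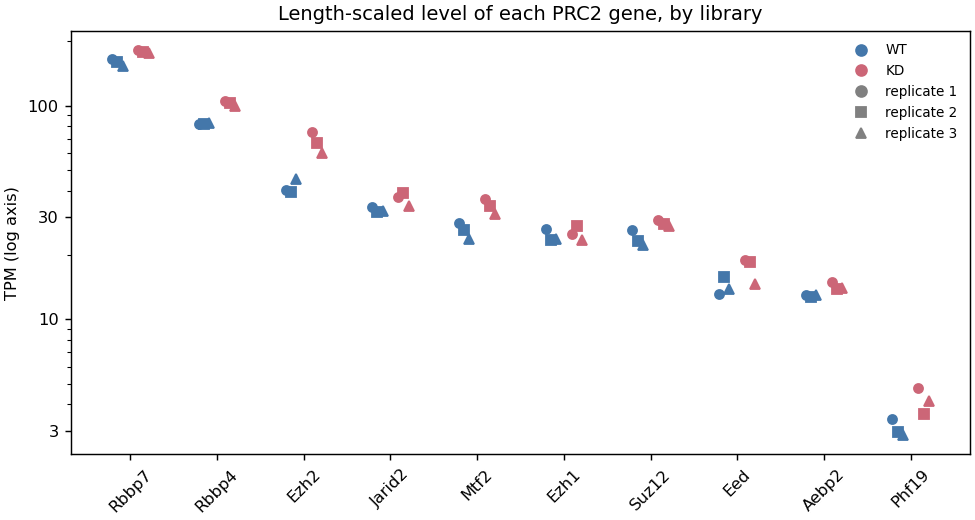
TPM of each PRC2 gene (log axis) in WT and KD libraries, in the order of the WT mean. Rbbp7 stands highest at 160 TPM in WT and Phf19 lowest at 3.09 TPM.

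The other polycomb genes, taken from lists of subunits chosen with earlier results of these data known, gave mixed directions. Of the further PRC2 accessory genes 4 of 5 were tested and 1 was called, where 24.0% of all genes were. Phf1, the polycomb-like relative of Mtf2, went from 39.4, 35.7 and 36.0 CPM in WT to 30.1, 29.7 and 29.3 CPM in KD. It fell by 0.32 on the log2 scale (SE 0.06, adjusted p = 0.0082, edgeR's quasi-likelihood test), the opposite direction to Mtf2, and the groups did not overlap. With the replicate block a further gene, Epop, was called (log2 fold change 0.40, adjusted p = 0.00822 against 0.0881 without it). Of 25 PRC1 genes, whose complex ubiquitinates histone H2A, 6 were called higher and 2 lower, against 12.0% and 11.9% of all genes, with a median log2 fold change of 0.10. With the replicate block 11 of the 25 were called, against 36.6% of all genes in either direction. The most changed were Cbx6, a reader of methylated H3K27 (0.46, adjusted p = 0.0015), and Auts2 (0.45, adjusted p = 0.00986), and the lower pair was Rybp (-0.21) and Kdm2b (-0.15). The PRC1 calls numbered 8 in all, falling to 3 when WT replicate 2 was left out, to 4 when WT replicate 1 or KD replicate 3 was, and to 5 when KD replicate 1 or 2 was. In these fits, in this order, 11.4%, 16.6%, 18.5%, 15.8% and 12.6% of all genes were called in either direction, against 24.0% with all libraries. DESeq2 called 5, against 15.5% of all genes in that fit.

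Enzymes that oppose PRC2 or PRC1 were called in 3 of 6 cases, against 24.0% of all genes. Kdm6b, a demethylase of H3K27, rose by 0.33 on the log2 scale (adjusted p = 0.0114) and Asxl1, a cofactor of H2A deubiquitination, by 0.20 (adjusted p = 0.0239), while Asxl3, from the same family, fell by 0.42 (adjusted p = 0.0374). Kdm6a and Bap1 were added with the replicate block, for 5 calls, and leaving out single libraries left 1 call when WT replicate 2 or KD replicate 1 was dropped. Of all genes, 36.6% were called with the block, 11.4% without WT replicate 2 and 15.8% without KD replicate 1. Over all fits with a single library left out the range was 11.4% to 23.1%. Of 15 COMPASS genes, whose complexes methylate H3 at lysine 4, 2 were called, where 24.0% of all genes were. Dpy30 rose by 0.44 (adjusted p = 0.00339) and Rbbp5 fell by 0.29 (adjusted p = 0.023). With the block, which called 36.6% of all genes, there were 4 calls, adding Kmt2b and Wdr5, against 1 when WT replicate 1, WT replicate 2 or KD replicate 2 was dropped. Of 17 genes of other complexes that use Rbbp4 or Rbbp7, such as NuRD, Sin3 and CAF-1, 8 were called higher and 1, Mta3, lower (-0.19, adjusted p = 0.0479), against 12.0% and 11.9% of all genes. Sap30, of the Sin3 complex, rose by 0.65 (adjusted p = 0.00623) and Chaf1b, of the histone chaperone CAF-1, by 0.46 (adjusted p = 0.0242). These calls numbered 9, falling to 5 when WT replicate 2 or KD replicate 1 was dropped. All adjusted p-values here are from edgeR's quasi-likelihood test, and without the pair numbered 2 it called 0 of the 67 genes of these 5 lists, with 23 at an unadjusted p below 0.05, a cut that 22.9% of all genes passed in that fit.

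**Figure D5:**
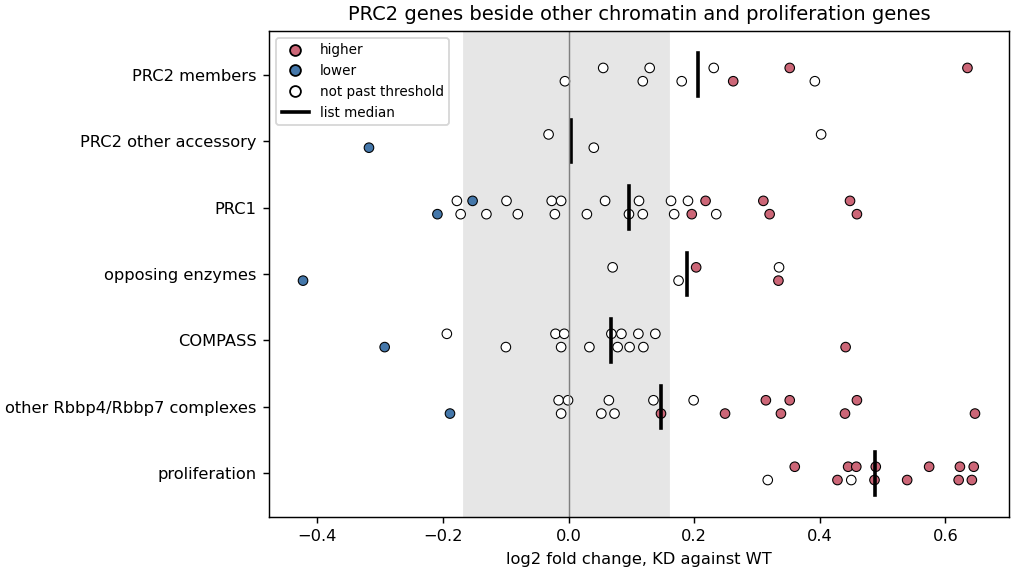
Log2 fold change (KD against WT, x axis) of every gene tested in the PRC2, PRC1, COMPASS and related lists and in the proliferation list. Filled points passed the threshold, a line marks the list median, and the grey band holds the middle of all genes tested. Medians run from 0.00 for the further accessory genes to 0.49 for proliferation.

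Genes that PRC2 classically silences gave little to measure. Of 37 such genes 33 were listed and 2 were tested, the cell cycle inhibitors Cdkn2a and Cdkn2b, and 0 were called by edgeR, DESeq2 or limma-voom, 0 also at an unadjusted p below 0.05. The other 31 stood at up to 13 reads in a library, the highest being T, at 0.788 CPM. All 20 listed Hox genes were under the filter, at up to 8 reads and 0.95 TPM. With no filter, edgeR's test also called 0 of the listed genes. These genes had few reads in both groups, so small differences in them could not be seen.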

How the data were processed

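RNA-seq of 3 WT and 3 KD libraries was used, with groups and replicate numbers from the sample titles; control columns, named Ctrl in the table, were assigned to the WT title of the same number. The authors deposited one table with an estimated count per gene (2 decimals; 89.3% to 89.85% of values whole) and TPM values, which the authors scaled for length and depth. Submitters' processing notes name HISAT2 2.2.1, Bowtie2 2.4.5, RSEM 1.3.1 and GRCm38/mm10, with no roles given. A further 12 columns (6 FPKM, 6 group averages) were not used.

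Estimated counts were rounded, although whole counts had been planned for, and were tested in R 4.3.3 with edgeR 4.0.16 (TMM scaling, filterByExpr with a minimum count of 10, quasi-likelihood F test, Benjamini-Hochberg over 13669 genes, threshold 0.05). SEs were derived from F (effect size over the root of F), and CPM use TMM library sizes. The between-library coefficient of variation was 7.69%. Alternatives used limma 3.58.1 and DESeq2 1.42.0, other scalings, filters and left-out libraries. The test was checked on simulated data. Named genes are the 10 members, Ybx1 and the most changed called genes of each list, and others are named where a count is small or exons overlap. The members and all gene lists were chosen with earlier results of these data known.

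Libraries of the same number deviated together from their group means (r = 0.351, 0.32 and 0.178 over genes, against -0.276 to -0.018 for other numbers). Deviations within a group sum to 0, so these values are not independent of one another. The numbers may pair the libraries, although what a number stands for is not in the labels. No pair of libraries of a group agreed within sampling noise (chi-square per degree of freedom 4.43 to 8.66). Totals of 16294635 to 16497505 leave genes of under about 10 reads untested. Promoters came from RefSeq GRCm38.p6, and exon overlaps from GENCODE vM21.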

Additional observations from a re-analysis of the deposited data

How the results depend on the processing

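The count of PRC2 genes called higher was 3 under most settings, between 3 and 4 when single libraries were left out, 5 with the replicate block and 0 without the pair numbered 2, a setting chosen after seeing the data. Ezh2, Rbbp4 and Mtf2 passed the threshold of 0.05 in 16 of 17 alternatives each, failing without that pair. At a stricter threshold of 0.01 in the main fit 2 were called, as Mtf2 did not pass (adjusted p = 0.0125, edgeR's quasi-likelihood test). Ezh1 turned to 0.015 with library totals only, to 0.044 on log2(TPM + 1), and ranged from -0.058 to 0.051 with single libraries left out. With the block, calls rose to 2 for accessory genes, 5 for opposing enzymes and 4 for COMPASS. It changed no other PRC2 call than Suz12 and Phf19. The settings for cell type markers were also chosen after seeing the data. DESeq2 gave 5 for PRC1, library totals 5 for opposing enzymes and the TPM test 1 for COMPASS. Leaving out single libraries gave 3 to 8 calls for PRC1, 1 to 3 for opposing enzymes, 1 to 3 for COMPASS, 5 to 8 for the other Rbbp4 and Rbbp7 complexes and 6 to 12 for proliferation. Without the second pair calls were 0 for accessory, PRC1, opposing, COMPASS and other Rbbp4 and Rbbp7 genes and 1 for proliferation, with fewer samples. In KD, 2 members held another place in the TPM order. Ybx1 kept its direction and call throughout. Of all genes called, 50.2% were higher, against 65.9% on log2(TPM + 1), 57.9% with library totals and 43.0% with upper quartile scaling, and the cause was not tested. All-gene calls were 24.0%, 15.5% by DESeq2, 36.6% with the block and 11.4% to 23.1% with single libraries left out. Phf19 and the polycomb targets are limited by their few reads.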
